A study of Mus musculus with 11 samples.

Results

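Heat shock proteins and their co-chaperones were followed in the quadriceps of mice that lost weight with a C26 tumor. Members were chosen by gene symbol alone, as every probe whose symbol began with Hsp or Dnaj or was Bag1, Bag2, Bag3, Bag4, Bag5 or Bag6, except Hspg2, the basement membrane protein perlecan, which shares only the letters. This gave 143 of the 45281 probes on the array, for 74 of its 19057 named genes. Female CD2F1 mice of 5 to 6 weeks were compared in 3 groups. Control mice (n = 4) carried no tumor. Mice with moderate cachexia (n = 3, called early cachexia in the labels) had lost 10% of body weight after subcutaneous C26 colon adenocarcinoma cells, and mice with severe cachexia (n = 4) had lost 15%. Severe mice were taken later than moderate ones, so time with a tumor and loss of weight cannot be told apart. C26 is a single transplanted mouse line, and labels and paper differ on the vendor (Harlan or Charles River) and on the site of injection (between the shoulder blades or in each flank). Total RNA of whole muscle from each mouse was hybridized to its own Illumina MouseWG-6 v2.0 array.

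Heat shock proteins are chaperones: they bind proteins that are unfolded, newly made or damaged, and help them to fold, to move to the right compartment or to be degraded. Small heat shock proteins (HSPB) hold unfolded proteins without ATP, and several are abundant in striated muscle, where they sit on the contractile apparatus. HSP70 proteins bind and release clients in a cycle of ATP hydrolysis that J-domain (DnaJ) proteins speed up and that nucleotide exchange factors, the BAG proteins among them, reset. HSP90 takes over partly folded clients such as kinases and steroid receptors, and heat shock factor 1 (HSF1) switches on many of these genes when unfolded proteins accumulate.

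Values are log2 signals after background correction and quantile normalization, listed in the order of control mice 1, 2, 3 and 4, moderate mice 5, 9 and 12, and severe mice 11, 13, 15 and 16. Mouse numbers are those of the signal table and could not be matched to the labels' replicate numbers. Differences are log2 fold changes ± standard error from a limma model of all 11 arrays, called at a Benjamini-Hochberg adjusted p under 0.05 over the 10134 genes detected throughout at least 1 group. Of the 74 members, 61 were among these genes, and 57 of the 61 were detected on all 11 arrays. The other 13 were not well above background in any whole group and were not tested: Hspb9, Hspb11, Hspa12a, Hspa13, Hspa14, Dnajb3, Dnajb7, Dnajb8, Dnajb13, Dnajb14, Dnajc5b, Dnajc5g and Dnajc6. The 4 control mice served for both stages, so their differences from control are not independent of each other. In whole muscle, fewer cells of a type and less RNA per cell cannot be told apart.

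Markers of other cell types moved between the groups, and severe mouse 11 stood apart. Of 10 skeletal muscle markers, 1 was higher and 2 lower in severe cachexia, and the log2 of their summed signal lay between 17.39 and 17.59 on all arrays. Slow fibre markers were lower in 7 of 7 and 6 of 7 cases, with summed levels of 14.00 to 15.16 in controls, 11.69 to 13.90 in moderate and 12.60 to 13.43 in severe mice. Macrophage markers were higher in 6 of 9 in each stage (11.21 to 11.44, 11.92 to 12.27 and 11.85 to 12.98), and adipocyte markers lower in 5 and 4 of 6 (12.35 to 13.17, 11.16 to 11.61 and 10.79 to 13.05). Neutrophil markers were higher in 1 and 2 of 4 (7.77 to 10.25, 8.27 to 9.54 and 9.17 to 10.55), endothelial markers in 2 and 1 of 6 (10.81 to 11.08, 11.04 to 11.16 and 11.03 to 11.23) and, in severe cachexia, red blood cell markers in 1 of 2 (12.41 to 12.90, 11.89 to 12.93 and 12.59 to 14.03). Fibroblast markers were lower in 3 of 6 in each stage (13.80 to 13.90, 13.68 to 13.96 and 13.43 to 13.96). The tops of the severe macrophage and adipocyte ranges were both mouse 11, whose macrophage markers had a median 1.65 above the control mean against 0.46 to 0.83 in the other severe mice. Of the markers on the array, 1 of 10 for macrophages, 3 of 7 for neutrophils, 1 of 7 for adipocytes and 1 of 7 for endothelium did not pass the detection filter. The part of these markers in the results below was not tested.

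Chaperone genes changed in both directions in moderate cachexia and mostly upward in severe cachexia. Of the 61 members, 10 rose and 10 fell in moderate cachexia (16.4% each way), against 18.9% and 22.2% of all genes tested (41.1% either way). Among these calls, Dnaja1 (up) and Hspa4l (down) passed the detection filter only through groups where they were higher, so they are not independent of it. In severe cachexia 17 rose and 7 fell (27.9% and 11.5%), against 15.6% and 17.8% of all genes (33.3% either way). The members' median log2 fold change was 0.02 in moderate and 0.21 in severe cachexia, where all genes had medians of -0.03 and 0.00. Between the stages 4 members were higher in severe cachexia and 0 lower by their brightest probe, against 3.17% and 3.81% of all genes (6.98% either way). The share of members called in that direction was 6.56%, and at an unadjusted p under 0.05 in the same limma model 15 were higher and 4 lower (19 of 61, against 23.8% of all genes). Control and cachectic mice did not overlap for 28 members in moderate (45.9%, against 47.7% of all genes) and for 24 in severe cachexia (39.3%, against 32.3%). Hspa4l, Dnajc9 and Dnajc14 in moderate and Dnajc14 in severe cachexia are among these. They passed the detection filter only through groups where they were higher, so their separation is not independent of it. Moderate and severe mice did not overlap for 14 members (23.0%, against 20.1%). Of the 4 calls between the stages, Hspa1l, Hsph1 and Dnajc12 were each lost without moderate mouse 5 or without severe mouse 16, and Hspb3 was kept with any mouse left out. Hspa1l was also lost without moderate mouse 9 or severe mouse 13, Hsph1 without moderate mouse 12, and Dnajc12 without control mouse 1, moderate mouse 12 or severe mouse 11 or 15 (adjusted p of these calls up to 0.15 with a mouse left out). With each mouse left out in turn, 13 of the 20 calls in moderate and 16 of the 24 in severe cachexia were kept every time. Lost without at least 1 mouse were Hsph1, Hspa4l, Bag1, Bag5, Dnaja1, Dnajb9 and Dnajb12 in moderate and Hspa1a, Hspa1b, Hspa2, Bag1, Bag5, Dnajb1, Dnajb4 and Dnajc8 in severe cachexia, while 7 and 13 other members passed only with a mouse left out. Against control, Hspb1, Hspbap1, Hsph1, Bag5, Dnajb2 and Dnajb12 rose in both stages. Hspb2, Hspbp1, Bag1, Bag2, Dnajc4, Dnajc15 and Dnajc19 fell in both. The same controls served both stages, and the share of all genes called alike in both was not counted, so this overlap cannot be called particular to chaperones.

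**Figure D1:**
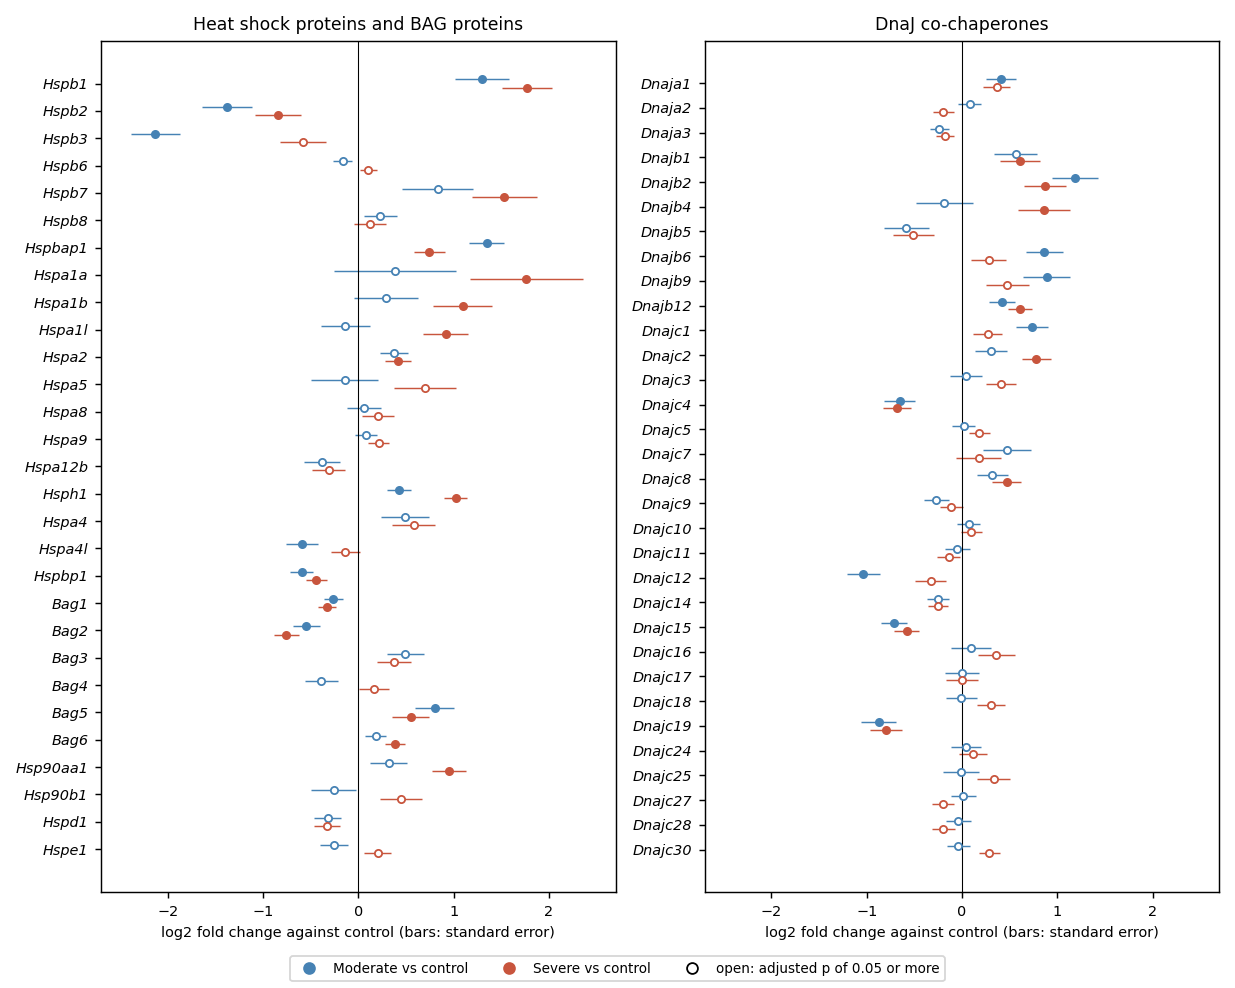
Log2 fold change against control (x axis) of each of the 61 tested members (y axis), with heat shock and BAG proteins on the left and DnaJ proteins on the right. Points are model estimates, bars are standard errors, and filled points passed an adjusted p under 0.05. Hspb1 lies to the right in both stages, Hspb3 is farthest to the left in moderate cachexia at -2.13, and Hspa1a has the widest bars.

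Promoter sequences of the members that the results turn on are printed here as RefSeq gives them for build GRCm38.p6. Each window runs from 250 bases before to 50 after an annotated start of the gene. Hsph1 and Hspd1 have 2 windows each, and the one with the most matches of the marked motif was printed, so it was picked for the motif. They show the letters that HSF1 is known to bind, inverted repeats of GAA, in genes that moved together, moved the other way or did not pass. Capitals mark each match of GAANNTTC or TTCNNGAA on either strand, both of which read the same on the opposite strand, except in Hspa5, where they mark the endoplasmic reticulum stress element (CCAAT, any 9 bases, CCACG).
Hspa1a, chr17:34972107-34972406, minus strand: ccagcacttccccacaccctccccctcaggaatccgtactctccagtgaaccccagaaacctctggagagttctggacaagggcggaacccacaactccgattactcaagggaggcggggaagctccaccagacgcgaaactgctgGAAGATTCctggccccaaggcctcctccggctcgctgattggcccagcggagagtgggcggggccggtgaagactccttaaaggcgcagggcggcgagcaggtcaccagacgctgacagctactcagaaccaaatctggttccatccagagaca
Hspa1b, chr17:34959189-34959488, minus strand: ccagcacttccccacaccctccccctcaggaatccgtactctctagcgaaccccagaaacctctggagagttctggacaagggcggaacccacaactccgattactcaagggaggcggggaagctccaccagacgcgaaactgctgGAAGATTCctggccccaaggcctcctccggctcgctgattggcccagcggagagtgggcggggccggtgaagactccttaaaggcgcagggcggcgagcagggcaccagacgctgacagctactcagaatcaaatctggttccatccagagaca
Hsph1, chr5:149636287-149636586, minus strand: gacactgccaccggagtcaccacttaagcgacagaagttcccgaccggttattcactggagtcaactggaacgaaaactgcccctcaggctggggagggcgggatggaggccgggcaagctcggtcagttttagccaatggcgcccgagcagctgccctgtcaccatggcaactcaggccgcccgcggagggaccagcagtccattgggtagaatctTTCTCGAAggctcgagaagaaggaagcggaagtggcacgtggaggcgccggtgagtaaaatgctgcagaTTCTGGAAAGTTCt
Hspb1, chr5:135887669-135887968, plus strand: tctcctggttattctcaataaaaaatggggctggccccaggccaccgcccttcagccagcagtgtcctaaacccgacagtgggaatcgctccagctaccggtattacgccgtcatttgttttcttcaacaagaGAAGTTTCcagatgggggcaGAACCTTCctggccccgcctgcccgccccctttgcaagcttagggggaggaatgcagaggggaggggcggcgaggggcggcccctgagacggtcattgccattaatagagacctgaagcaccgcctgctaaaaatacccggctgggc
Hspb3, chr13:113663627-113663926, minus strand: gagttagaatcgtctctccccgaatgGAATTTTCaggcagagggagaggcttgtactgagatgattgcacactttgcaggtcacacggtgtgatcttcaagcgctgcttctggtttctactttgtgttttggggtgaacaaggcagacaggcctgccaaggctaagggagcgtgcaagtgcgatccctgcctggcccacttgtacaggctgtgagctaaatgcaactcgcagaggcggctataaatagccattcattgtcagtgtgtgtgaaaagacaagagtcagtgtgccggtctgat
Hspd1, chr1:55087883-55088182, minus strand: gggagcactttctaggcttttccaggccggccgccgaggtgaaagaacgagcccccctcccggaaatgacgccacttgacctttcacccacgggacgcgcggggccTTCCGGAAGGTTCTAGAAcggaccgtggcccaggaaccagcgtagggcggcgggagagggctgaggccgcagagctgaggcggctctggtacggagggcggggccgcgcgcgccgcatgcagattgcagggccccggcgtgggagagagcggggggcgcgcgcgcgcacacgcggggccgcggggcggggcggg
Hspa5, chr2:34771840-34772139, plus strand: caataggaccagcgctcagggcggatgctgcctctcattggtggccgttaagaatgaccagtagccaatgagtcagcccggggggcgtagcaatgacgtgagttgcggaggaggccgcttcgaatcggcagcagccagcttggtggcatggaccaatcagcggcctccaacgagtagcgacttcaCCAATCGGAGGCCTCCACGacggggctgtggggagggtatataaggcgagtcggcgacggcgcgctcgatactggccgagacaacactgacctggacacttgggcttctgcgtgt
Hspa1a and Hspa1b, neighbouring copies of 1 gene, differed at 4 of these 300 bases. Of the 74 members, 61 had a promoter in the table, and 16 of these 61 (26.2%) held GAANNTTC or TTCNNGAA, against 17.0% of all 27025 genes there. By window, 15.1% of 32851 held a match. A row of 3 units (GAANNTTC followed by NNGAA, searched on both strands and including the shorter motifs) was in 4 of the 61, namely Hsph1, Hspd1, Hspe1 and Dnajb6, against 0.662% of all genes. Hspd1 and Hspe1 overlap head to head, so their windows can hold the same row. These counts, and those of pairs, are of genes and not of separate sites. The stress element was in Hspa5, Hsp90b1 and Dnajc3, against 0.137% of all genes. Of the 15 tested members with a pair of units, 5 rose in severe cachexia (Hspb1, Hspa1a, Hspa1b, Hsph1 and Dnajb4) and 0 fell, which is 33.3% against the 27.9% of all members that rose. In moderate cachexia 4 of the 15 rose (Hspb1, Hsph1, Dnaja1 and Dnajb6; 26.7%) and 1 fell, Hspb3. TTCNNNGAA, a spacing bound by STAT factors that can overlap a pair but not coincide with it, was in 2 of the 61, Dnajc7 and Dnajc27, against 9.55% of all genes.

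Among the small heat shock proteins, Hspb1 rose and Hspb2 fell in both stages, Hspb7 rose in severe cachexia and Hspb3 fell in moderate cachexia. Hspb1 (HSP25, which protects actin filaments) had log2 signals of 10.95, 10.94, 11.59 and 11.04 in the control mice, 13.06, 11.86 and 12.34 in the moderate mice and 12.59, 13.37, 12.42 and 13.20 in the severe mice. Every cachectic mouse lay above every control. Hspb1 rose by 1.29 ± 0.28 (adjusted p = 0.0035) in moderate cachexia, 2.45-fold, and by 1.77 ± 0.26 (adjusted p = 0.000505) in severe, 3.40-fold. The stages overlapped, with a difference of 0.47 (95% interval -0.14 to 1.08).

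Hspb7, a muscle and heart protein that binds filamin C, had log2 signals of 10.50, 11.07, 10.67 and 10.13 in the control mice, 11.45, 10.40 and 12.41 in the moderate mice and 11.80, 12.68, 11.86 and 12.14 in the severe mice. All severe mice lay above all controls, while moderate mouse 9 lay within the control range. The rise was 1.53 ± 0.34 (adjusted p = 0.00528) in severe cachexia, 2.89-fold, and the value in moderate cachexia was 0.83 ± 0.37 (adjusted p = 0.0891). With a mouse left out the moderate value ran from 0.34 (adjusted p = 0.446), without mouse 12, to 1.34 (adjusted p = 0.00481), without mouse 9.

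Hspb2 and Hspb3 are partners that form a complex of their own in muscle. Hspb3 had log2 signals of 10.84, 10.62, 10.49 and 10.49 in the control mice, 7.89, 9.24 and 8.31 in the moderate mice and 10.48, 9.78, 9.89 and 9.95 in the severe mice. The moderate mice lay below all others, and the severe mice lay in between, with mouse 11 just under the lowest control. Hspb3 fell by 2.13 ± 0.26 (adjusted p = 0.000103) in moderate cachexia, to 0.23 of the control signal, the largest change of any member in either stage. In severe cachexia its value was -0.58 ± 0.24 (adjusted p = 0.078), and the severe mice exceeded the moderate ones by 1.55 ± 0.26 (adjusted p = 0.00549). Without mouse 11 the severe value passed at -0.74 ± 0.24 (adjusted p = 0.024).

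Hspb2 had log2 signals of 8.88, 8.73, 9.11 and 9.06 in the control mice, 7.10, 7.84 and 7.75 in the moderate mice and 8.74, 7.41, 8.17 and 8.10 in the severe mice. Severe mouse 11 reached the lowest controls and the other cachectic mice lay below them. Hspb2 fell by 1.38 ± 0.26 (adjusted p = 0.00157) in moderate and by 0.84 ± 0.24 (adjusted p = 0.0182) in severe cachexia. Its annotated span (chr9:50751072-50752354) lies inside that of Cryab (chr9:50745951-50756636), the gene of alpha-B crystallin, also a small heat shock protein of muscle. Cryab, which the choice by symbol leaves out, fell by 0.85 ± 0.16 (adjusted p = 0.00138) in moderate cachexia, rose by 0.40 ± 0.15 (adjusted p = 0.0493) in severe and was 1.25 ± 0.16 (adjusted p = 0.00115) higher in severe than in moderate mice. Its log2 signals were 11.60, 11.82, 11.85 and 12.06 in the control mice, 10.88, 10.93 and 11.13 in the moderate mice and 12.38, 12.41, 11.79 and 12.34 in the severe mice.

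Hspbap1, named for binding Hspb1, had log2 signals of 6.49, 5.90, 6.33 and 6.30 in the control mice, 7.74, 7.30 and 7.75 in the moderate mice and 6.74, 6.98, 7.27 and 7.02 in the severe mice. All cachectic mice lay above all controls, and it rose by 1.34 ± 0.18 (adjusted p = 0.000197) and 0.74 ± 0.17 (adjusted p = 0.00525). Hspb6 (HSP20) and Hspb8 (HSP22, the partner of Bag3) passed in no contrast. Hspb6 was -0.16 ± 0.10 (adjusted p = 0.203) in moderate and 0.10 ± 0.09 (adjusted p = 0.402) in severe cachexia, with a 95% interval of -0.09 to 0.30 for the latter. Hspb8 was 0.23 ± 0.18 (adjusted p = 0.318) and 0.12 ± 0.16 (adjusted p = 0.597), with an interval of -0.23 to 0.47 in severe cachexia, where mouse 11 was lowest at 12.59 and the others lay between 13.11 and 13.16.

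**Figure D2:**
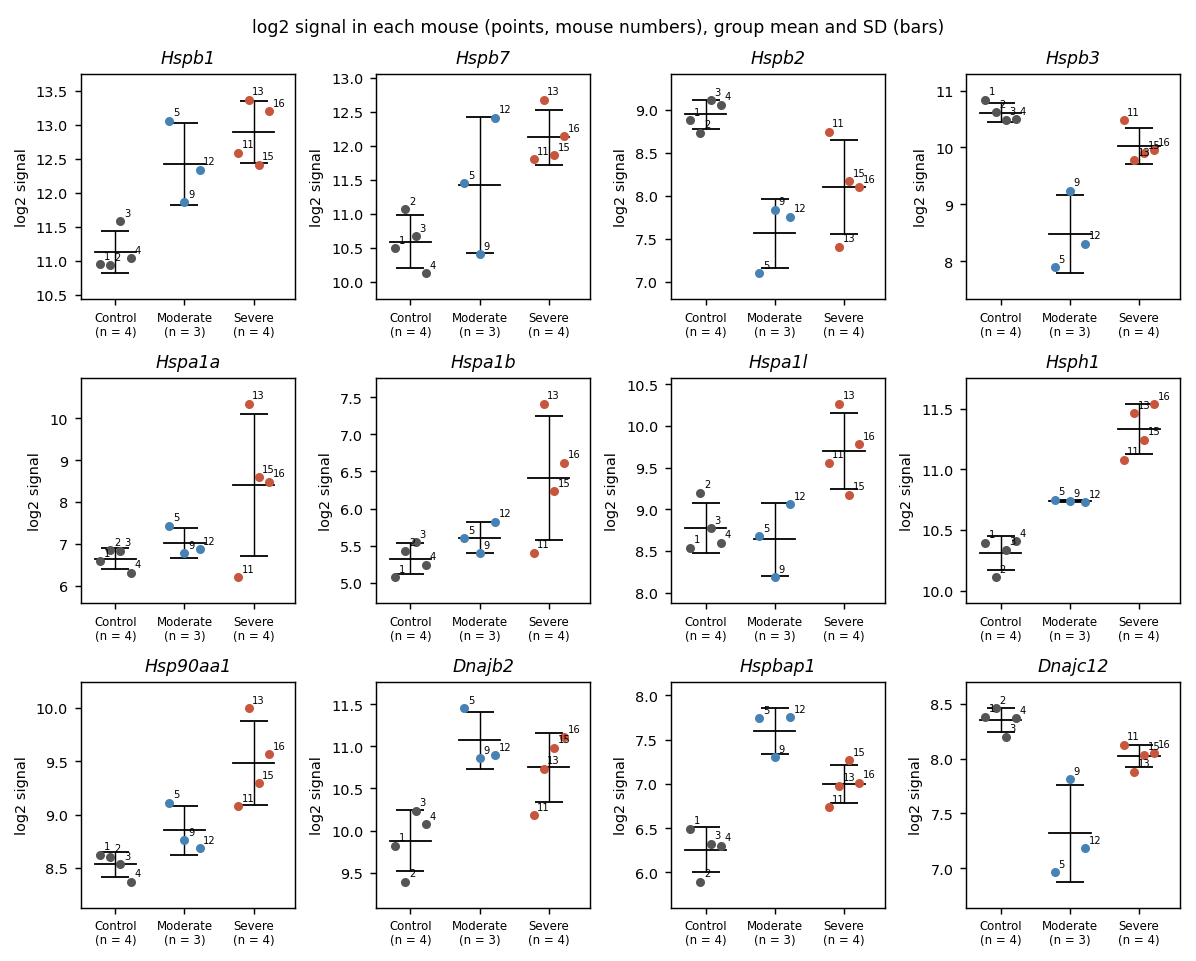
Log2 signal (y axis, its own scale in each panel) of 12 members in each mouse, by group (x axis). Points are mice with their numbers, long bars are group means and whiskers are SDs. Severe mouse 11 lies with the controls for Hspa1a and Hspa1b, and the 3 moderate mice lie between controls and severe mice for Hsph1.

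Inducible HSP70 genes were high in 3 of the 4 severe mice. Hspa1a and Hspa1b encode nearly the same protein, and Hspa1l, a relative read mainly in testis, lies beside them on chromosome 17 (Hspa1b at 34956429-34959238, Hspa1a at 34969359-34972156 and Hspa1l at 34972703-34979228). Hspa1a had log2 signals of 6.58, 6.84, 6.84 and 6.30 in the control mice, 7.43, 6.77 and 6.87 in the moderate mice and 6.20, 10.34, 8.59 and 8.48 in the severe mice. Severe mice 13, 15 and 16 lay above every other mouse, and severe mouse 11 lay below every control. The mean rise in severe cachexia was 1.76 ± 0.59 (adjusted p = 0.0361), 3.39-fold, with a 95% interval of 0.48 to 3.04. In moderate cachexia the value was 0.38 ± 0.64 (adjusted p = 0.663). The severe call was lost in 11 of 24 alternatives, among them leaving out any control or severe mouse 13, 15 or 16 (adjusted p up to 0.0882 with a mouse left out). The rise was 2.50 ± 0.36 (adjusted p = 0.000219) without mouse 11 and 1.11 (adjusted p = 0.0882) without mouse 13. The difference between the stages was 1.38 ± 0.64 (adjusted p = 0.212) with all mice, 2.11 ± 0.38 (adjusted p = 0.00776) without mouse 11 and 0.73 (adjusted p = 0.393) without mouse 13.

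Hspa1b had log2 signals of 5.07, 5.43, 5.54 and 5.24 in the control mice, 5.60, 5.40 and 5.82 in the moderate mice and 5.40, 7.41, 6.23 and 6.62 in the severe mice. The order of the severe mice was nearly that of Hspa1a, with mouse 13 highest and mouse 11 among the controls. Hspa1b rose by 1.09 ± 0.31 (adjusted p = 0.0173) in severe cachexia, by 1.43 ± 0.23 (adjusted p = 0.00048) without mouse 11 and by 0.76 (adjusted p = 0.0371) without mouse 13. The call was lost in 3 of 24 alternatives, narrowly without control mouse 1 or severe mouse 16 and, at an adjusted p of 0.114, by the methods' t-test. The copies are so alike that a probe of one can bind transcripts of the other, so how the rise divides between them is uncertain. The other 2 probes of Hspa1a and the other probe of Hspa1b were detected in 0 of 4 controls and in 3 of 4 severe mice, with mouse 11 the exception each time. Of the 3 moderate mice, the Hspa1a probes were detected in 1 and 0. The Hspa1b probe was detected in 2 of them, with a moderate mean at least 1.07-fold over controls. Folds against the background limit, on the means of all 4 severe mice, were at least 1.15 and 1.38 for Hspa1a and at least 2.59 for Hspa1b. These 3 probes did not pass the filter and have no test.

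Hspa1l had log2 signals of 8.54, 9.20, 8.77 and 8.60 in the control mice, 8.68, 8.18 and 9.06 in the moderate mice and 9.56, 10.26, 9.17 and 9.78 in the severe mice. Severe mouse 15 lay just under the highest control, and all severe mice lay above the moderate ones. It rose by 0.92 ± 0.24 (adjusted p = 0.0108) in severe cachexia and exceeded moderate mice by 1.05 ± 0.26 (adjusted p = 0.0289), and in moderate cachexia it was -0.14 ± 0.26 (adjusted p = 0.697). Here mouse 11, at 9.56, was not apart from the other severe mice.

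Among the other HSP70 genes, Hspa2 rose by 0.42 ± 0.14 (adjusted p = 0.0344) in severe cachexia, with all 4 severe mice between 8.38 and 8.51 and the controls between 7.84 and 8.20. Its second tested probe did not pass there, at 0.29 ± 0.15 (adjusted p = 0.15). Hspa8 (HSC70, the form made at all times) passed in no contrast with all mice, at 0.06 ± 0.18 (adjusted p = 0.806) and 0.21 ± 0.17 (adjusted p = 0.351). Its log2 signals were 13.20, 13.29, 13.25 and 13.24 in the control mice, 13.50, 13.18 and 13.23 in the moderate mice and 12.86, 13.73, 13.47 and 13.75 in the severe mice, so that mouse 11 lay below and the other severe mice above all controls. Without mouse 11 it passed at 0.41 ± 0.11 (adjusted p = 0.0104), while without mouse 16 it was 0.11 (adjusted p = 0.677). Hspa9 (mortalin, of mitochondria) was 0.21 ± 0.11 (adjusted p = 0.141) in severe cachexia with all mice 0.30 ± 0.10 (adjusted p = 0.0326) without mouse 11 and 0.13 (adjusted p = 0.378) without mouse 16. Hspa12b, an endothelial member, was -0.38 ± 0.19 (adjusted p = 0.12) and -0.31 ± 0.17 (adjusted p = 0.183). Of the 8 HSP70 genes tested, 4 rose in severe cachexia (15.6% of all genes) and 0 in moderate (18.9%). In moderate cachexia 1 of the 8 had an unadjusted p under 0.05 in limma, against 49.7% of all genes.

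The exchange factors of HSP70 divided. Hsph1 (HSP105), a large relative of HSP70 that acts as exchange factor, rose in both stages, and its promoter above holds a row of 3 GAA units. Its log2 signals were 10.39, 10.11, 10.34 and 10.41 in the control mice, 10.75, 10.74 and 10.73 in the moderate mice and 11.08, 11.46, 11.25 and 11.54 in the severe mice. The groups did not overlap: controls were lowest, moderate mice between and severe mice highest, with mouse 11 lowest of these. Hsph1 rose by 0.43 ± 0.13 (adjusted p = 0.0187) in moderate cachexia and by 1.02 ± 0.12 (adjusted p = 0.000142) in severe, 2.03-fold, and differed between the stages by 0.59 ± 0.13 (adjusted p = 0.0177).

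Hspa4, the other common exchange factor of this type, was 0.49 ± 0.25 (adjusted p = 0.131) and 0.58 ± 0.23 (adjusted p = 0.0684), and in severe cachexia it passed without mouse 11 at 0.72 ± 0.23 (adjusted p = 0.0212) and was 0.37 (adjusted p = 0.203) without mouse 13. Hspa4l was detected in 4 controls, 0 moderate and 3 severe mice, and fell in moderate cachexia, where the control mean was at least 1.22-fold higher (adjusted p = 0.0132). It passed the detection filter only through the controls, where it was higher, so this call is not independent of the filter. Hspbp1, which slows HSP70 cycling, had log2 signals of 7.08, 7.00, 7.17 and 7.04 in the control mice, 6.38, 6.43 and 6.62 in the moderate mice and 6.56, 6.74, 6.66 and 6.58 in the severe mice. All cachectic mice lay below all controls, and Hspbp1 fell by 0.59 ± 0.12 (adjusted p = 0.00253) and by 0.44 ± 0.11 (adjusted p = 0.0105).

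The BAG proteins link HSP70 to other systems, Bag1 to the proteasome and Bag3 to autophagy, while Bag2 restrains the ubiquitin ligase CHIP. Bag2 had log2 signals of 6.78, 6.88, 6.68 and 6.77 in the control mice, 6.11, 6.21 and 6.38 in the moderate mice and 5.71, 6.05, 6.18 and 6.15 in the severe mice. Every cachectic mouse was under every control, with mouse 11 lowest, and Bag2 fell by 0.54 ± 0.14 (adjusted p = 0.00951) and by 0.76 ± 0.13 (adjusted p = 0.00137). Bag1 fell by 0.26 ± 0.10 (adjusted p = 0.0489) and by 0.33 ± 0.09 (adjusted p = 0.0161), with severe mice at 12.44 to 12.52 and controls at 12.69 to 12.94. Moderate mice were at 12.53, 12.71 and 12.45, so mouse 9 lay within the control range. The moderate call was lost in 9 of the 11 fits with a mouse left out (adjusted p up to 0.175). Bag5 had log2 signals of 8.47, 8.48, 8.42 and 8.44 in the control mice, 9.66, 8.85 and 9.25 in the moderate mice and 8.54, 9.42, 8.94 and 9.10 in the severe mice. All cachectic mice exceeded the controls, mouse 11 by the least, and Bag5 rose by 0.80 ± 0.21 (adjusted p = 0.00842) and 0.55 ± 0.19 (adjusted p = 0.0413). A dimmer Bag5 probe, detected in 2 control, 2 moderate and 4 severe mice, was 0.42 ± 0.19 (adjusted p = 0.0878) in moderate and 0.59 ± 0.17 in severe cachexia. Bag6, a handler of misfolded and tail-anchored proteins, rose by 0.39 ± 0.10 (adjusted p = 0.0136) in severe cachexia.

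Bag3 had log2 signals of 12.04, 12.23, 12.21 and 12.19 in the control mice, 12.98, 12.53 and 12.46 in the moderate mice and 11.95, 12.90, 12.60 and 12.70 in the severe mice. The 3 moderate mice and severe mice 13, 15 and 16 lay above all controls, and mouse 11 lay below them. Bag3 was 0.49 ± 0.19 (adjusted p = 0.0579) in moderate and 0.37 ± 0.18 (adjusted p = 0.128) in severe cachexia, and without mouse 11 it passed in both, at 0.49 ± 0.13 (adjusted p = 0.00924) and 0.57 ± 0.13 (adjusted p = 0.00465). The lowest values with a mouse left out were 0.33 (adjusted p = 0.259) in moderate, without mouse 5, and 0.25 (adjusted p = 0.324) in severe cachexia, without mouse 13. Bag4 passed in no contrast, at -0.39 ± 0.17 (adjusted p = 0.0831) and 0.16 ± 0.16 (adjusted p = 0.452). Of the 10 exchange factors tested, 2 rose and 4 fell in moderate cachexia, with Hspa4l among the 4, against 18.9% and 22.2% of all genes. In severe cachexia 3 rose and 3 fell, against 15.6% and 17.8% of all genes.

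Hsp90aa1, the inducible cytosolic HSP90, had log2 signals of 8.62, 8.61, 8.53 and 8.37 in the control mice, 9.11, 8.76 and 8.68 in the moderate mice and 9.08, 10.00, 9.29 and 9.56 in the severe mice. By this probe, the brightest, all severe mice and all moderate mice lay above the controls, and mouse 13 was highest. Hsp90aa1 rose by 0.95 ± 0.18 (adjusted p = 0.00205) in severe cachexia, 1.93-fold, and was 0.32 ± 0.19 (adjusted p = 0.204) in moderate. Its second detected probe was 0.89 ± 0.26 in severe cachexia and -0.02 ± 0.28 (adjusted p = 0.967) in moderate. On that probe the moderate mice, at 6.03, 5.55 and 5.68, overlapped the controls, at 5.45 to 6.02. Hsp90ab1, the constant form, had no probe under that single symbol and was not analysed here. Hspd1 and Hspe1, the mitochondrial chaperonin HSP60 and its lid HSP10, overlap head to head on chromosome 1 (55077833-55088243 and 55088148-55091317). Hspd1 was -0.32 ± 0.14 (adjusted p = 0.0886) and -0.33 ± 0.13 (adjusted p = 0.0737), Hspe1 was -0.25 ± 0.15 (adjusted p = 0.189) and 0.20 ± 0.14 (adjusted p = 0.278), and neither passed, while the printed Hspd1 promoter also holds a row of GAA units.

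The class B DnaJ proteins, most of them partners of cytosolic HSP70, moved upward where they passed. In each stage 4 of 7 rose, against 18.9% of all genes in moderate and 15.6% in severe cachexia, and 0 fell. At an unadjusted p under 0.05 in limma, 5 were higher and 1 lower in moderate and 4 and 1 in severe cachexia. Of all genes, 49.7% and 43.9% passed that in either direction. Dnajb1 (HSP40, the main partner of inducible HSP70) had log2 signals of 8.84, 8.48, 8.74 and 8.54 in the control mice, 9.62, 9.34 and 8.67 in the moderate mice and 8.90, 9.67, 9.03 and 9.44 in the severe mice. The severe mice lay above all controls, mouse 11 by the least, and Dnajb1 rose by 0.61 ± 0.21 (adjusted p = 0.0401), with 0.56 ± 0.23 (adjusted p = 0.063) in moderate cachexia. The severe call was lost without any single control, or without severe mouse 13 or 16, where the adjusted p reached 0.12. Dnajb2 (HSJ1, which carries clients to the proteasome) had log2 signals of 9.82, 9.40, 10.23 and 10.08 in the control mice, 11.45, 10.86 and 10.89 in the moderate mice and 10.18, 10.73, 10.98 and 11.11 in the severe mice. Mouse 11 lay within the control range and the other cachectic mice above it, and Dnajb2 rose by 1.19 ± 0.24 (adjusted p = 0.00235), 2.28-fold, in moderate and by 0.87 ± 0.22 (adjusted p = 0.0104) in severe cachexia.

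Dnajb4, close to Dnajb1 in sequence, had log2 signals of 8.58, 8.55, 8.50 and 8.19 in the control mice, 8.63, 8.29 and 7.88 in the moderate mice and 8.47, 10.08, 9.14 and 9.58 in the severe mice. Severe mice 13, 15 and 16 lay above all others and mouse 11 with the controls. It rose by 0.86 ± 0.28 (adjusted p = 0.0291) in severe cachexia, by 1.14 ± 0.22 (adjusted p = 0.00126) without mouse 11, and was 0.60 (adjusted p = 0.0832) without mouse 13. Its second detected probe gave 0.10 ± 0.15, so the probes disagree. Dnajb6, which keeps proteins from aggregating and is mutated in a human muscular dystrophy, had log2 signals of 10.16, 9.67, 10.29 and 10.22 in the control mice, 11.22, 10.64 and 10.99 in the moderate mice and 9.99, 10.28, 10.60 and 10.59 in the severe mice. Moderate mice lay above all others, and Dnajb6 rose by 0.86 ± 0.19 (adjusted p = 0.00412) there and was 0.28 ± 0.18 (adjusted p = 0.25) in severe cachexia. Its 3 other probes tested also rose in moderate cachexia, and 2 of them were lower in severe than in moderate mice, at -0.68 (adjusted p = 0.0483) and -0.74 (adjusted p = 0.0287), where the brightest probe gave -0.59 ± 0.19 (adjusted p = 0.0854). Dnajb12, of the endoplasmic reticulum membrane, rose by 0.42 ± 0.14 (adjusted p = 0.0283) and 0.61 ± 0.13 (adjusted p = 0.00385). Dnajb5 was -0.58 ± 0.23 (adjusted p = 0.0604) and -0.51 ± 0.22 (adjusted p = 0.085).

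Of the 3 class A genes, Dnaja1 rose in moderate cachexia by 0.41 ± 0.15 (adjusted p = 0.0489), and Dnaja2 and Dnaja3 passed in neither stage. Dnaja1 was detected in 2 of 4 controls, 3 of 3 moderate and 4 of 4 severe mice, and its call was close to the threshold. It passed the detection filter only through the cachectic groups, where it was higher, so this call is not independent of the filter.

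The class C proteins, which carry a J domain in otherwise unlike proteins, had 22 tested genes: 1 rose and 4 fell in moderate cachexia, and 2 rose and 3 fell in severe. In moderate cachexia this was 4.55% and 18.2%, against 18.9% and 22.2% of all genes. In severe cachexia it was 9.09% and 13.6%, against 15.6% and 17.8%. The class C genes that fell in both stages were Dnajc19 and Dnajc15, which serve the import motor of the mitochondrial inner membrane, and Dnajc4. Dnajc19 had log2 signals of 12.72, 12.53, 12.67 and 12.55 in the control mice, 11.37, 12.18 and 11.67 in the moderate mice and 12.11, 11.57, 11.99 and 11.62 in the severe mice. All cachectic mice lay below the controls, and it fell by 0.88 ± 0.18 (adjusted p = 0.00253) and by 0.79 ± 0.17 (adjusted p = 0.00377). One more of its probes also fell, not detected in moderate mice, and the 2 others that were tested did not pass. Dnajc15 fell by 0.71 ± 0.14 (adjusted p = 0.00195) and by 0.58 ± 0.13 (adjusted p = 0.00525), and Dnajc4 by 0.65 ± 0.16 (adjusted p = 0.00682) and by 0.68 ± 0.15 (adjusted p = 0.0047).

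Dnajc12, a co-chaperone of aromatic amino acid hydroxylases, had log2 signals of 8.38, 8.46, 8.20 and 8.37 in the control mice, 6.96, 7.81 and 7.18 in the moderate mice and 8.13, 7.88, 8.04 and 8.06 in the severe mice. By this probe, the brightest, moderate mice were lowest, severe mice in between and controls highest, with no overlap. It fell by 1.03 ± 0.18 (adjusted p = 0.000895) in moderate cachexia, was -0.33 ± 0.16 (adjusted p = 0.138) in severe, and differed between the stages by 0.71 ± 0.18 (adjusted p = 0.0325). A second tested probe of Dnajc12 also fell in moderate cachexia, by 0.73 ± 0.21 (adjusted p = 0.0167). On that probe severe mice, at 7.38, 6.77, 7.09 and 7.33, overlapped both other groups. Its difference between the stages was 0.55 ± 0.21 (adjusted p = 0.138), so the probes differ there. Dnajc2, which binds ribosomes, rose by 0.78 ± 0.15 (adjusted p = 0.00272) in severe cachexia with mice at 9.46, 10.00, 9.55 and 10.03 against 8.81 to 9.21 in controls. Dnajc8, linked to splicing, rose by 0.47 ± 0.15 (adjusted p = 0.0291) in severe cachexia, where its second tested probe did not pass, at 0.30 ± 0.15 (adjusted p = 0.142). By their brightest probes, the 15 class C genes other than these and Dnajc1 had log2 fold changes between -0.27 and 0.47 over both stages. A dimmer probe of Dnajc10 rose by 0.41 ± 0.13 (adjusted p = 0.0269) in severe cachexia, where its brightest gave 0.10. The dimmer probe was detected in 3 of 4 controls and passed the filter only through the cachectic groups, where it was higher.

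Chaperones of the endoplasmic reticulum, where secreted and membrane proteins fold, were tested beside 21 other genes of its folding machinery and of the unfolded protein response. Hspa5 (BiP), the HSP70 of this compartment, had log2 signals of 6.87, 6.98, 6.90 and 6.35 in the control mice, 7.06, 6.24 and 6.59 in the moderate mice and 6.84, 8.44, 6.77 and 7.83 in the severe mice. Severe mice 13 and 16 lay above all others, while mice 11 and 15 lay among the controls. Hspa5 was -0.14 ± 0.35 (adjusted p = 0.771) and 0.69 ± 0.33 (adjusted p = 0.117), and in severe cachexia it ran from 0.37 (adjusted p = 0.334), without mouse 13, to 0.93 (adjusted p = 0.0453), without mouse 15, passing also without mouse 11 at 0.90 ± 0.32 (adjusted p = 0.0354). Hsp90b1 (GRP94) was -0.26 ± 0.24 (adjusted p = 0.407) and 0.45 ± 0.22 (adjusted p = 0.132), and Dnajc3, a regulator of the response, 0.05 ± 0.17 (adjusted p = 0.852) and 0.41 ± 0.16 (adjusted p = 0.06). Dnajc3 passed in severe cachexia without mouse 11 at 0.48 ± 0.16 (adjusted p = 0.0309) and was 0.30 (adjusted p = 0.179) without mouse 13. All 3 promoters held the stress element.

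Dnajb9 and Dnajc1, J-domain partners of BiP, rose in moderate cachexia. Dnajb9 had log2 signals of 10.64, 10.72, 10.64 and 10.58 in the control mice, 11.70, 11.40 and 11.51 in the moderate mice and 10.45, 11.81, 10.81 and 11.41 in the severe mice. The moderate mice lay above all controls, and the severe mice spread from below the controls (mouse 11) to the highest value of all (mouse 13). It rose by 0.89 ± 0.24 (adjusted p = 0.0119) in moderate cachexia and was 0.47 ± 0.23 (adjusted p = 0.123) in severe. The severe value passed without mouse 11 at 0.70 ± 0.18 (adjusted p = 0.00882) and was 0.24 (adjusted p = 0.351) without mouse 13. Dnajc1 rose by 0.74 ± 0.17 (adjusted p = 0.00406) in moderate cachexia, with all 3 mice above all others.

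Of the 21 other genes, 7 rose and 2 fell in moderate cachexia, where 18.9% and 22.2% of all genes did (median 0.04, against -0.03 for all genes). In severe cachexia 10 rose, against 15.6% of all genes (median 0.52, against 0.00). Between the stages 6 were higher and 1 lower in severe cachexia, against 3.17% and 3.81% of all genes (median 0.37, against 0.02). Ppp1r15a, the phosphatase subunit that restores translation after stress, rose by 2.24 ± 0.28 (adjusted p = 0.00012) and 1.08 ± 0.26 (adjusted p = 0.00724) and was lower in severe than in moderate mice by 1.15 ± 0.28 (adjusted p = 0.0287). Edem1, of degradation from the reticulum, rose by 1.08 ± 0.21 (adjusted p = 0.0017) and 0.79 ± 0.19 (adjusted p = 0.00766), and the stress sensor Ern1 by 1.47 ± 0.31 (adjusted p = 0.00271) in moderate cachexia. In severe cachexia Creld2, at 0.94 ± 0.19 (adjusted p = 0.00295), the disulfide isomerase P4hb, at 0.78 ± 0.16 (adjusted p = 0.00287), and Derl2, of degradation from the reticulum, at 0.80 ± 0.14 (adjusted p = 0.00152), rose. Between the stages Creld2 differed by 0.88 ± 0.20 (adjusted p = 0.0233) and Pdia4, a disulfide isomerase, by 0.73 ± 0.17 (adjusted p = 0.0233).

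**Figure D3:**
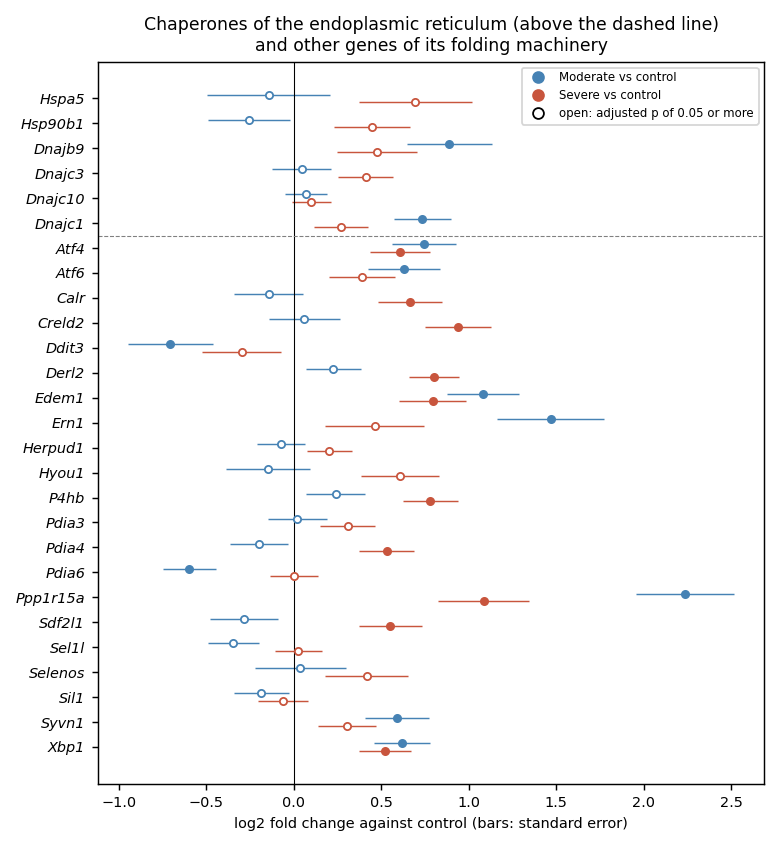
Log2 fold change against control (x axis) of 6 chaperones of the endoplasmic reticulum, above the dashed line, and of 21 other genes of its folding machinery (y axis). Points are model estimates, bars standard errors, and filled points passed an adjusted p under 0.05. Ppp1r15a is farthest to the right at 2.24 in moderate cachexia, and 10 of the 21 genes below the line passed in severe cachexia.

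Other partners of these chaperones were counted from lists. Of 19 co-chaperones of HSP70 and HSP90 without a J domain, 3 rose and 4 fell in moderate cachexia (median 0.01) and 5 rose and 2 fell in severe (median 0.10). Of all genes, 18.9% rose and 22.2% fell in moderate and 15.6% and 17.8% in severe cachexia. The adaptor Stip1 (HOP), which passes clients from HSP70 to HSP90, fell by 0.61 ± 0.15 (adjusted p = 0.00629) in moderate cachexia, was 0.11 ± 0.14 (adjusted p = 0.55) in severe, and was higher in severe than moderate mice by 0.72 ± 0.15 (adjusted p = 0.0139). Fkbp4, an HSP90 partner at steroid receptors, fell by 0.90 ± 0.15 (adjusted p = 0.000786) and by 0.41 ± 0.14 (adjusted p = 0.0375), where its relative Fkbp5 rose by 3.03 ± 0.30 (adjusted p = 2.8e-05) in moderate cachexia. Itgb1bp2 (melusin), a striated muscle partner of HSP90, fell by 1.25 ± 0.31 (adjusted p = 0.00714) in moderate cachexia and fell by 2.26 ± 0.29 (adjusted p = 0.000218) in severe cachexia.

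Of 5 chaperones of myosin, 2 fell in each stage, Itgb1bp2 as given above and Smyd1, a striated muscle methyltransferase, at -1.06 ± 0.21 (adjusted p = 0.00221) and -0.81 ± 0.20 (adjusted p = 0.00799). Of 8 subunits of the cytosolic chaperonin CCT, 1 fell in moderate (Cct5, -0.72 ± 0.19 (adjusted p = 0.00917)) and 2 rose in severe cachexia (Cct2, 0.63 ± 0.19 (adjusted p = 0.0254), and Cct4, 0.43 ± 0.15 (adjusted p = 0.0435)). Of 4 prefoldin genes, 1 rose (Pfdn2, 0.79 ± 0.19 (adjusted p = 0.00622)) and 2 fell in moderate cachexia (Pfdn4, -0.51 ± 0.13 (adjusted p = 0.00747), and Vbp1, -0.39 ± 0.14 (adjusted p = 0.0414)). Of 13 mitochondrial chaperones and proteases, 1 rose and 4 fell in moderate cachexia and 1 rose and 1 fell in severe. Beside all these lists, 18.9% of all genes rose and 22.2% fell in moderate, and 15.6% and 17.8% in severe cachexia.

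Partners of Bag3 and Hspb8 in the autophagy of damaged filaments included Synpo2, which fell by 2.08 ± 0.22 (adjusted p = 3.8e-05) in moderate and by 0.59 ± 0.20 (adjusted p = 0.0369) in severe cachexia and was 1.49 ± 0.22 (adjusted p = 0.00278) higher in severe than moderate mice. Its client filamin C (Flnc) rose by 1.42 ± 0.24 (adjusted p = 0.00112) in severe cachexia, and the receptor Sqstm1 (p62) by 1.12 ± 0.23 (adjusted p = 0.00274) and 0.80 ± 0.22 (adjusted p = 0.0139). In all, 2 of these 7 genes rose and 1 fell in each stage. Beside this list and the next, 18.9% of all genes rose and 22.2% fell in moderate, and 15.6% and 17.8% in severe cachexia. Of 4 heat shock factor genes and regulators tested, 1 fell in moderate and 2 fell in severe cachexia. Those were Hsbp1, a binder of HSF1, at -0.42 ± 0.13 (adjusted p = 0.0187) and -0.43 ± 0.12 (adjusted p = 0.0146), and Hsbp1l1, at -1.14 ± 0.15 (adjusted p = 0.000269) in severe cachexia.

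Severe mice differed among themselves in these genes. Mouse 11 had the lowest value of the 4 severe mice for 38 of the 61 members (35.1% of all genes) and the highest for 8 (30.5%). Mouse 13 had the highest for 22 (28.7%), mouse 16 for 18 (16.9%) and mouse 15 for 13 (23.9%). In mouse 11, 19 members lay above and 24 below all controls, against 35 and 16 in mouse 13, 28 and 15 in mouse 15 and 37 and 16 in mouse 16. Among moderate mice these numbers were 28 and 18 in mouse 5, 20 and 23 in mouse 9 and 26 and 20 in mouse 12. Of all genes, 28.8% to 36.0% lay above and 31.5% to 39.3% below all controls in these 7 mice.

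Without mouse 11, 25 members rose and 8 fell in severe cachexia, against 19.5% and 20.9% of all genes, and 7 were higher and 0 lower in severe than in moderate mice, against 3.05% and 3.31%. These 7 were Hspb3, Hspa1a, Hspa1b, Hspa1l, Hsph1, Hsp90aa1 and Dnajb4. Dnajc12 was no longer among them, at 0.67 ± 0.19 (adjusted p = 0.0505). Leaving out mouse 11 raises the severe mean of each of the 38 members for which it was lowest. These counts are therefore not independent of the choice of that mouse. Without severe mouse 16 instead, 17 members were called in severe cachexia and 1 between the stages. Mouse 11 was also the severe mouse with the highest macrophage, neutrophil, adipocyte, fibroblast and red blood cell markers. Against the control mean, its median was 2.15 for neutrophil markers (0.70 to 1.70 in the other severe mice), 0.28 for adipocyte markers (-1.72 to -1.21), 0.01 for fibroblast markers (-1.86 to -0.84) and 1.61 for red blood cell markers (0.37 to 1.48). What part this has in its chaperone levels was not tested.

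**Figure D4:**
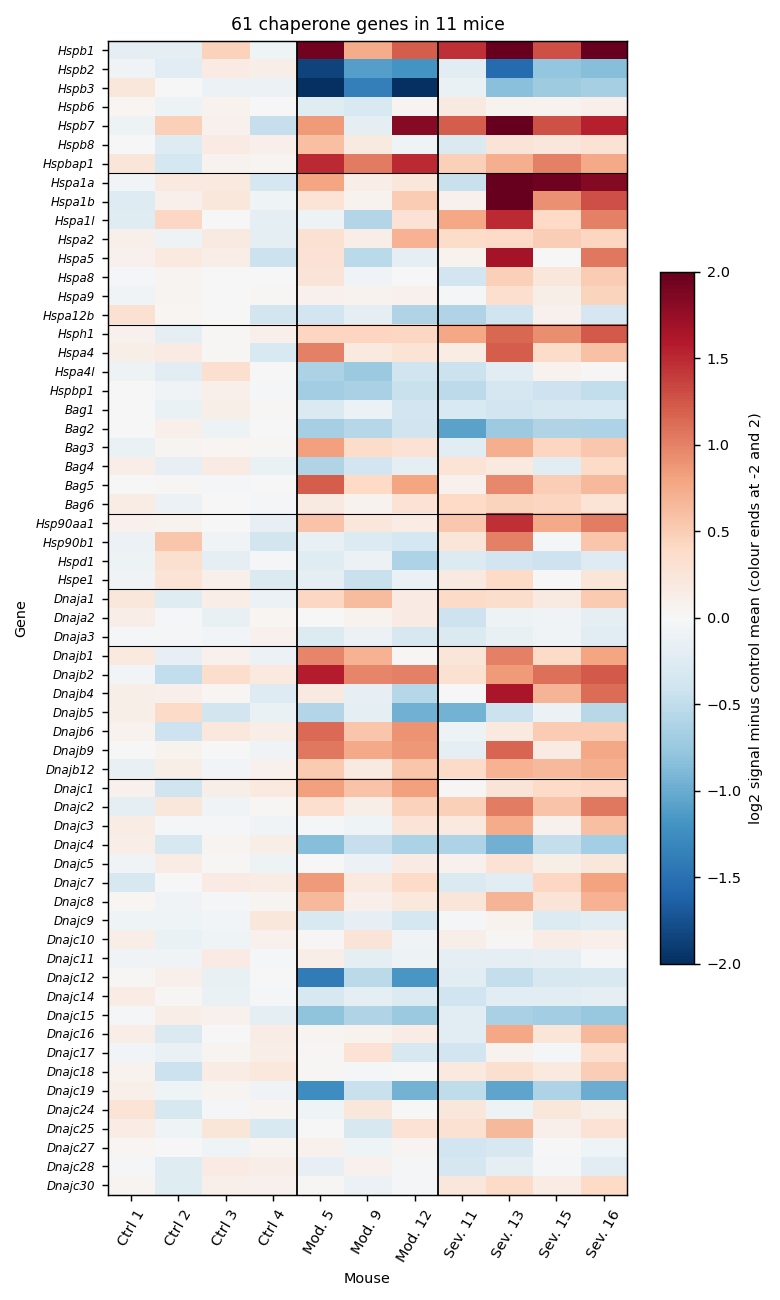
Log2 signal minus the control mean (colour, ending at -2 and 2) of the 61 tested members (y axis, lines between families) in each of the 11 mice (x axis). Hspb1 and Hspb7 are strongly positive in every severe mouse, and Hspa1a in severe mice 13, 15 and 16. Hspb2 and Hspb3 are negative in the moderate mice, and mouse 11 is near or below 0 for Hspa1a, Hspa5, Hspa8, Bag3 and Dnajb9.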

How the data were processed

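Total RNA of the quadriceps of 4 control, 3 moderate and 4 severe mice was measured. The methods name BeadStudio for the raw signals and GeneSpring GX for normalization, without saying which made each table. The intensity values deposited by the authors were already background-subtracted (28.5% below 0) and shared 1 distribution (sorted columns differed by at most 0.319). Each p-value in the deposited table is the authors' detection p for a probe and array. The ratio values deposited by the authors are these intensities, floored at 1, over the median of the controls, and were used only as an alternative. The sources used here do not give BeadStudio's settings or the chip that each array lay on.

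Background was corrected by normexp, with its parameters taken from the detection p and an offset of 16, followed by quantile normalization and log2 in limma 3.58.1 (R 4.3.3). Of 45281 probes, 18837 were detected (p under 0.01) in all mice of 1 or more groups. Probes with 1 symbol were kept (34885 on the array, with 18 of several symbols and 10378 of none left out), and the brightest probe stood for its gene, which gave 10134 genes. Of the 143 member probes, 88 passed the filter. Detected probes numbered 18626 to 20006 per array, and precision is limited by how few arrays there are. A limma model took all arrays, with 3 group means, an intensity trend and no covariate, with p-values adjusted over all genes by the Benjamini-Hochberg method. Where a whole group lacked detection, the fold is a lower bound.

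Genes to name were 17 chaperones known from muscle or the heat shock response (Hsp90ab1 among them, without a probe), every other member past the threshold with a fold of at least 2, and up to 4 genes with the smallest adjusted p of each list, of which the text gives a selection, and members named beyond these were chosen after their values were seen. Members and lists were chosen with earlier results of these data known. In simulated data with these groups, among 10134 genes, 75 of 100 with a log2 change of 1 were called in moderate and 77 of 100 in severe cachexia. Of 100 genes with a change of 0.5, 15 and 29 were. Only these genes were changed in the simulation, whereas 41.1% and 33.3% of genes were called in the data. The adjusted threshold depends on that share, so these rates need not hold for the data. Figures used matplotlib 3.10.9. Gene positions and promoters are RefSeq's for GRCm38.p6, matched by symbol. Alternatives changed the background correction, scaling, filter, choice of probe, model and arrays, 1 at a time.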

Additional observations from a re-analysis of the deposited data

Results flagged for a closer look

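Among the 22 named members tested, 44 groups of 4 mice were examined for a mouse far from the others by Dixon's test at the 95% level, which chance passes in about 1 of 20 groups. Control mouse 3 had the highest Hspb1 of the controls at 11.59, with the next at 11.04 and the lowest at 10.94. Severe mouse 11 had the lowest Hspb8 of the severe mice at 12.59, with the others between 13.11 and 13.16.

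By the brightest probe and the limma contrast of severe against moderate mice, the change from control differed between the stages for 4 named members. These were Hspb3 (1.55 on the log2 scale), Hspa1l (1.05), Hsph1 (0.594) and Dnajc12 (0.705), all higher in severe cachexia.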

How the results depend on the processing

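The count of chaperone genes changed from control moved by less than 1.5 times under all 13 settings that kept all mice, from 16 to 21 in moderate cachexia (20 as reported) and from 17 to 25 in severe (24). With a mouse left out it ran from 13 to 23 in moderate, lowest without moderate mouse 5, and from 17 to 33 in severe cachexia, lowest without severe mouse 16 and highest without severe mouse 11. Between the stages (4 as reported) it was 2 with a replicate block on the deposited ratios, 1 with only the arrays compared and 0 by the methods' t-test after adjustment (16 of 61 at an unadjusted p under 0.05), and 1 to 7 with a mouse left out, lowest without moderate mouse 5 or severe mouse 16 and highest without severe mouse 11. The replicate block gave 16, 17 and 2 calls in the 3 contrasts where the ratios without it gave 21, 24 and 5. Samples share only a number: of 10 same-numbered pairs 1 correlated over 0.1 (r from -0.35 to 0.13).

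Of 551 alternatives to the 23 called values of named genes, 479 kept the call, 72 lost it and 0 turned. Values that did not pass changed sign with a mouse left out for 8 results. With a mouse left out they ran from -0.35 to 0.091 for Hspa1l, -0.36 to 0.053 for Hspa5 and -0.037 to 0.12 for Hspa8 in moderate cachexia. Between the stages they ran from -0.27 to 0.076 for Hspb8, -0.24 to 0.077 for Bag3, -0.15 to 0.10 for Hspd1, -0.16 to 0.071 for Dnaja1 and -0.22 to 0.25 for Dnajb1. The call of Dnaja1 in moderate cachexia was lost in 17 of 23 alternatives. With 3 or 4 mice a group, small changes can be missed.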
